A study of Mus musculus with 6 samples.

Results

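A T cell clone keeps the same antigen receptor wherever its cells are found, so cells with the same receptor in both sorting gates can be compared with each other. The T cell receptor has an alpha and a beta chain. Each is assembled once per developing T cell by joining V and J gene segments (V, D and J in the beta chain), with bases trimmed and added at the joins, and daughter cells inherit both sequences. The stretch across the join is the junction. A clonotype was taken here as 1 pair of alpha and beta junction sequences, using the first-listed chain of each kind in a cell. The members are the clonotypes found in both gates at the same replicate number. There were 75 of them, 19, 23 and 33 at replicate numbers 1 to 3, and each junction pair occurred at 1 replicate number only among them. They held 871 cells, 561 tdTomato+GFP+ and 310 tdTomato-GFP- cells, of 13310 cells with a replicate number and both chains. Members were chosen by the measured receptor sequences and the gates, so sharing itself, clonotype sizes and receptor segment transcripts are given as descriptions. The gates follow a reporter of the gene Foxp3, described below. The rule therefore also touches the Foxp3 level when members are set against other clonotypes.

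All cells of both gates were sorted CD4 T cells from the lamina propria of the colon, the connective tissue layer under the gut epithelium. The mice carried Foxp3{delta}EGFPiCre/WT together with R26lsl-tdTomato/wt. Foxp3 lies on the X chromosome, and its product is the defining transcription factor of regulatory T (Treg) cells, which restrain immune responses to gut microbes and food. In a cell that expresses the modified Foxp3 allele, EGFP and the Cre recombinase iCre are made, and Cre switches on tdTomato for good in that cell and its progeny. Each T cell of a heterozygous female uses a single X chromosome. A tdTomato-GFP- cell therefore either does not express Foxp3 or uses the intact allele, and cells with 1 reporter alone fall in neither gate. What the modified allele removes is not stated in the labels. The 2 groups are tdTomato+GFP+ and tdTomato-GFP- cells, each sorted as 3 hashed biological replicates and loaded on 1 10x lane. Because each gate had a lane of its own, an effect of the lane and one of the gate cannot be told apart, and age, sex and housing are not given in the labels. Nothing in the labels says which animals gave which sample, so p-values measure the spread between these hashed samples.

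The junctions of 7 members are shown first because the results turn on them. R2-1, R2-2, R1-1 and R3-1 had several cells in both gates, and R2-3, R1-7 and R1-8 gave the largest share of a summed sample. A name gives the replicate number and then the clonotype's number. Sequences run 5′ to 3′ on the coding strand, and capitals mark the bases between the germline V and J matches, where segments were joined. In beta chains the capitals also include any bases of the D segment, which was not matched.

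R2-1 alpha: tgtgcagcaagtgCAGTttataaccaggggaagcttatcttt

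R2-2 alpha: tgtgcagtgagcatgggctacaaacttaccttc

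R2-1 and R2-2 beta: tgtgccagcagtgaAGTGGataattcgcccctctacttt

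R2-3 alpha: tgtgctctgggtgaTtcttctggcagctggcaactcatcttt

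R2-3 beta: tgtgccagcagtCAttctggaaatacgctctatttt

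R1-7 alpha: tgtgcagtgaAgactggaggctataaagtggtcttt

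R1-7 beta: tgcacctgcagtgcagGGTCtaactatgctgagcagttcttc

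R1-8 alpha: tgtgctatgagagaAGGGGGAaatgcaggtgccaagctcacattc

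R1-8 beta: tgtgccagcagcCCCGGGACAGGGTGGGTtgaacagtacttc

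R1-1 alpha: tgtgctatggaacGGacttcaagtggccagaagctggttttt

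R1-1 beta: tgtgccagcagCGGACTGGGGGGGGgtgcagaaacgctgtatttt

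R3-1 alpha: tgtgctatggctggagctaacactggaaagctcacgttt

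R3-1 beta: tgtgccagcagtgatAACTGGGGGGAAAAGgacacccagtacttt

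The alpha segments lie in the Tra locus on chromosome 14 and the beta segments in the Trb locus on chromosome 6 (GRCm38). R2-1 and R2-2 carry the same beta junction, made of Trbv13-3 (chromosome 6, 41130147 to 41130585, plus strand) and Trbj1-6 (41535554 to 41535606). Their first-listed alpha junctions differ, Trav14d-1 with Traj23 in R2-1 and Trav7-3 with Traj9 in R2-2. R2-3 joined Trav6n-7 to Traj22 and Trbv19 (chromosome 6, 41178375 to 41179048) to Trbj1-3. The alpha junctions of R2-2 and R3-1 had 0 bases between their germline matches, while the beta junction of R1-8 had 17, any D bases included.

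Sharing followed the replicate number. Of the tdTomato+GFP+ clonotypes, 8.84%, 2.82% and 5.65% at replicate numbers 1 to 3 were also found in tdTomato-GFP- cells of the same number. Those same clonotypes were 0.967%, 1.8% and 4.05% of the tdTomato-GFP- clonotypes. At different replicate numbers the gates had between 0 and 3 clonotypes in common, 8 over the 6 possible pairs. The labels do not say whether samples of the same number came from the same animal. Of the members, 3 also occurred at another number, among them R1-7 with 5 tdTomato+GFP+ cells at number 2.

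**Figure D1:**
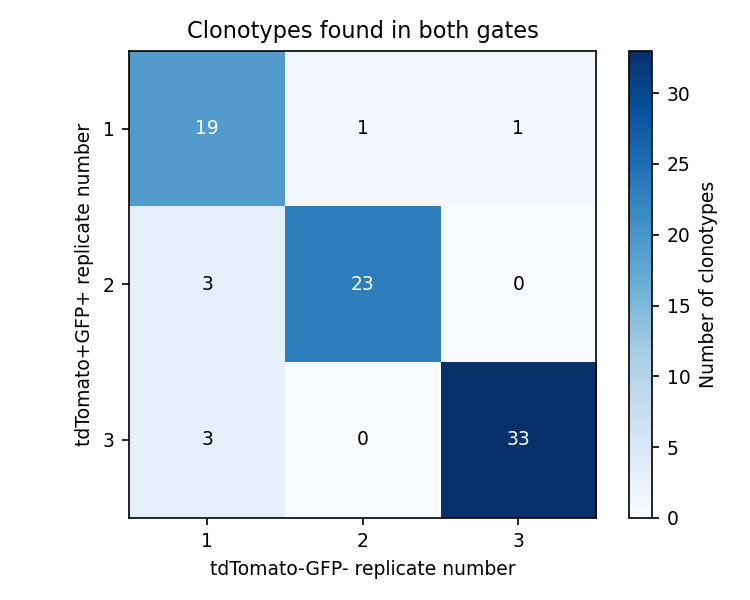
Number of clonotypes found in both gates, with the replicate number of the tdTomato+GFP+ sample down the page and that of the tdTomato-GFP- sample across. The diagonal holds 19, 23 and 33 clonotypes, and the other squares hold 0 to 3.

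Second chains, which the rule did not use, matched as well. A second alpha chain was recorded in 44 tdTomato+GFP+ and 29 tdTomato-GFP- member cells, and 8 clonotypes had one in both gates. In 8 of these 8 the same second alpha junction occurred in both gates. Among 39 pairs of different members of the same replicate number, each with 1 member's second alpha chain from each gate, 0 had the same one. R2-1 and R2-2 each held the other's first-listed alpha as their second alpha, in 22 of 23 R2-1 cells and 16 of 19 R2-2 cells. Both are among the 8 clonotypes above and were taken as different members in the 39 pairs. In all, 3 pairs of members were linked by a second chain, and the other links ran 1 way only. R2-6 held the first-listed alpha of R2-22 in 6 of 7 cells, and R2-9 the first-listed beta of R2-23 in 3 of 7. Joining each pair leaves 72 clonotypes, with the summed cells unchanged. The lanes shared 174 barcodes, 52 of them with both chains in both lanes, and 0 of those carried the same clonotype in both; 19 member cells had 1 of the 174 barcodes, and without them the gate differences below gave 19 calls in place of 20.

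The shared receptors were varied and close to the rest in their joins. They used 42 alpha and 19 beta V genes, and the median junction was 42 bases in both chains, as in the other clonotypes. A median of 11 bases lay between the V and J matches of both chains together (72 members with both joins split, range 1 to 24), against 12 in the other clonotypes of each gate. By replicate number the members' medians were 8.5, 11 and 12. None of the members carried the alpha joins of invariant natural killer T cells (TRAV11 with TRAJ18) or of MAIT cells (TRAV1 with TRAJ33), which recur between unrelated animals; the first was found in 1 other tdTomato+GFP+ and 9 other tdTomato-GFP- clonotypes.

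Most members were small or lopsided. Of the 75, 19 had 1 cell in each gate and 55 had 1 cell in the gate where they were rarer. There were 31 with more tdTomato+GFP+ cells, 22 with fewer and 22 with equal numbers. At least 2 cells in each gate were found for 20 members, and at least 5 for 3. Those 3 were R2-3 and the linked R2-1 and R2-2, all at replicate number 2. Just inside the rule were the members with 1 cell in each gate; just outside were clonotypes of 1 gate, the largest with 143 tdTomato+GFP+ and 69 tdTomato-GFP- cells. Single cells made up 56.7% of the other tdTomato+GFP+ and 77.6% of the other tdTomato-GFP- clonotypes.

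A few clones filled the summed samples. R1-7 had 95 tdTomato+GFP+ cells and 1 tdTomato-GFP- cell, and R2-3 had 196 tdTomato+GFP+ and 5 tdTomato-GFP- cells. R1-8 ran the other way, with 1 tdTomato+GFP+ cell and 82 tdTomato-GFP- cells. The largest member gave 69.9%, 62.6% and 18.8% of the tdTomato+GFP+ member cells at replicate numbers 1 to 3, against 50%, 17.2% and 26.1% of the tdTomato-GFP- member cells. A sum over cells therefore largely compares different clones, so each gate difference is also given with equal cells of every clonotype in both gates (121 cells per gate).

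**Figure D2:**
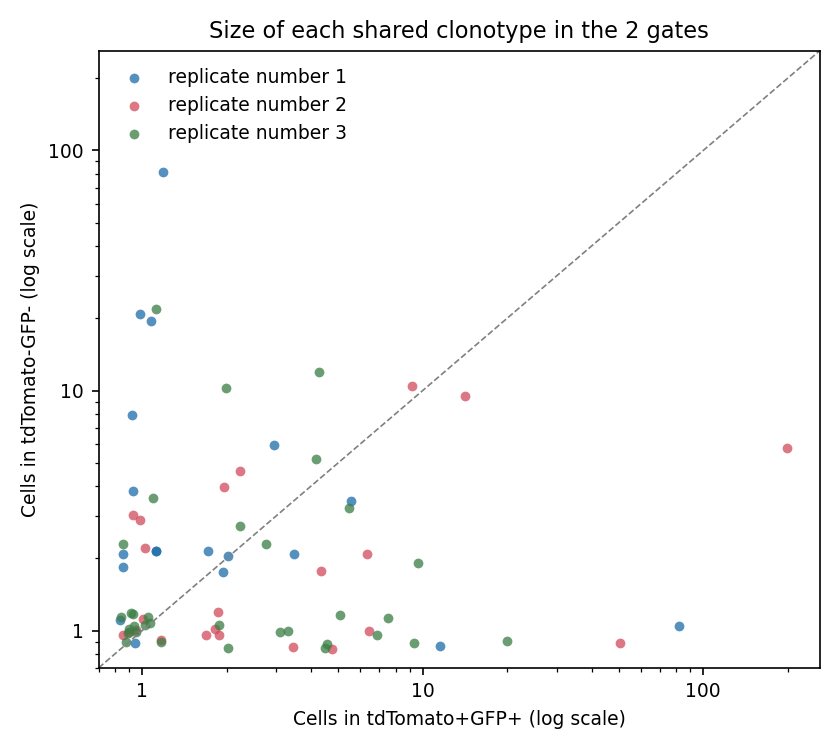
Cells of each of the 75 shared clonotypes in tdTomato+GFP+ (across) and tdTomato-GFP- (up), on log axes with points moved slightly at random so that they do not hide each other, coloured by replicate number. The dashed line marks equal numbers; R2-3 with 196 and 5 cells lies far right, and R1-8 with 1 and 82 cells far up.

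Member sums held 535296 to 1336350 UMIs (unique molecule counts) in tdTomato+GFP+ and 251907 to 706182 UMIs in tdTomato-GFP- samples, with medians of 3802.5 to 4129.5 UMIs per tdTomato+GFP+ cell and 3699.0 to 4072.5 UMIs per tdTomato-GFP- cell. Markers of the labelled cell type were present. Cd3e, a chain of the T cell receptor complex, had 1158 to 1580 CPM (UMIs per 1000000) in tdTomato+GFP+ and 1211 to 1411 CPM in tdTomato-GFP- sums. Cd4 had 375 to 563 CPM in tdTomato+GFP+, against 432 to 441 CPM in tdTomato-GFP- sums, while Cd8b1 had at most 2.99 CPM. Of markers of other cells, the summed level of 12 B and plasma cell genes was 421 to 634 CPM in tdTomato+GFP+, against 217 to 312 CPM in tdTomato-GFP- sums, and Ms4a1 and Ebf1 were at 0 in all 6. In tdTomato+GFP+ and then tdTomato-GFP- sums, the summed level was 150 to 284 and 75.4 to 188 CPM for 10 myeloid and dendritic genes, 12.6 to 58.4 and 13.1 to 19.8 CPM for 12 epithelial genes, and 42.7 to 59.8 and 39.7 to 49.7 CPM for 12 stromal and endothelial genes. In the same order it was 618 to 988 and 762 to 825 CPM for 10 gamma delta T cell genes, Maf among them, and 1439 to 3037 and 965 to 1468 CPM for 10 natural killer and innate lymphoid genes, Areg among them. Mitochondrial transcripts were 0.728% to 0.803% of UMIs in tdTomato+GFP+ and 0.801% to 0.886% in tdTomato-GFP- sums. The part of these in the results was not tested.

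Foxp3 (chromosome X, 7573644 to 7595245, GRCm38) came first, since the sort uses its reporter and its difference is tied to the gate. Foxp3 had 109.2, 117.2 and 120.7 CPM in the tdTomato+GFP+ sums of replicates 1 to 3, against 25.28, 3.914 and 5.264 CPM in the tdTomato-GFP- sums. Every tdTomato+GFP+ sum lay above every tdTomato-GFP- sum. The tdTomato-GFP- levels rest on 18, 1 and 2 UMIs, 10 of the 18 in 2 cells of R1-8. The difference was 2.98 on the log2 scale (SE 0.384, edgeR quasi-likelihood test, Benjamini-Hochberg adjusted p = 0.0071). With equal cells of every clonotype in both gates it was 3.19 (edgeR adjusted p = 0.0045). It did not pass without replicate number 1 (4.61), nor over cells with exactly 1 alpha and 1 beta chain. In such sums fewer cells of a type and less RNA per cell cannot be told apart.

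Counted by cells, a Foxp3 UMI was seen in 27.9%, 30.0% and 33.0% of tdTomato+GFP+ member cells, against 3.05%, 1.72% and 2.27% of tdTomato-GFP- member cells. The means were 30.3% ± 2.56 and 2.35% ± 0.666 (SD, n = 3 each), a mean paired difference of 28.0 points that was positive in all 3 pairs (exact paired permutation test, two-sided, p = 0.25, the smallest that 3 pairs allow). With each clonotype weighted equally the shares were 15.3%, 14.5% and 29.0% of tdTomato+GFP+ cells, against 8.02%, 1.09% and 4.55% of tdTomato-GFP- cells, a mean paired difference of 15.1 points (SD 8.71), also positive in all 3 pairs. After every cell was thinned to 2000 UMIs, leaving out 10 tdTomato+GFP+ and 8 tdTomato-GFP- member cells, the shares were 21.8%, 17.3% and 16.1% of tdTomato+GFP+ cells, against 1.86%, 0% and 0% of tdTomato-GFP- cells. At replicate numbers 2 and 3 these were 0 of 54 and 0 of 87 cells, which allows shares of up to 5.56% and 3.45%, for counting error only. As a measure of free RNA, cells with no cluster and no receptor chain, rich in B and plasma cell transcripts, had a Foxp3 UMI in 10.6% of 47 tdTomato+GFP+ and 8.06% of 62 tdTomato-GFP- cells, with medians of 3868 and 5041 UMIs per cell. That level rests on 5 cells with a Foxp3 UMI in each gate. Thinned to 2000 UMIs, it was 0 of 10, 0 of 20 and 0 of 5 such cells in tdTomato+GFP+ samples. In tdTomato-GFP- samples it was 3 of 22, 0 of 20 and 0 of 9. Before thinning, the share of tdTomato-GFP- member cells lay below that level. Such a share cannot tell free RNA from expression, so it is read as neither. At replicate number 1 the 18 Foxp3 UMIs of tdTomato-GFP- member cells lay in 5 cells. Whether these UMIs, 10 of them in 2 cells of R1-8, were free RNA was not tested.

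R1-7 gave 67.1% of the Foxp3 UMIs of the first tdTomato+GFP+ sum and R2-3 gave 72.0% of those of the second, while in the third the largest share was 20.6%, from R3-13. By clonotype, a Foxp3 UMI was found in the tdTomato+GFP+ cells alone of 31 clonotypes, in the tdTomato-GFP- cells alone of 3, in both of 3 and in neither of 38. With 561 tdTomato+GFP+ and 310 tdTomato-GFP- member cells, a UMI is more readily found in the former. Among the 9 clonotypes with the most cells in their rarer gate (3 per replicate number), each had 0 Foxp3 UMIs in its tdTomato-GFP- cells. In their tdTomato+GFP+ cells, R2-3 had 113 Foxp3 UMIs in 64 of 196 cells, R3-2 had 5 UMIs in 3 of 4 cells and R1-3 had 3 UMIs in 2 of 4 cells. R2-1 had 0 Foxp3 UMIs in 13 tdTomato+GFP+ cells and R2-2 had 1 in 10.

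Cells of the other clonotypes did not show this Foxp3 difference. Their Foxp3 level was 152.0, 117.7 and 114.5 CPM in tdTomato+GFP+, against 175.2, 191.1 and 165.2 CPM in tdTomato-GFP- sums. In 1 fit of all 12 sums, the gate log2 fold change was 2.97 in shared and -0.48 in other clonotypes. Shared minus other was 3.45 (SE 0.366, edgeR interaction term, adjusted p = 0.00306). Foxp3 was 1 of only 3 genes past the threshold among 10507 tested (0.0286%, of which 0.00952% higher and 0.019% lower). At an unadjusted p below 0.05 there were 870. The choice of members bears on this test. Each member has by rule a cell that used the modified allele, whereas other tdTomato-GFP- clonotypes may use the intact one. Within the tdTomato-GFP- gate alone, where the lane is the same, Foxp3 had 25.26, 3.867 and 5.242 CPM in shared, against 174.7, 189.7 and 165.3 CPM in other clonotypes (log2 -3.56, edgeR adjusted p = 8.3e-05). The same choice of members bears on this contrast. The authors' cluster 5, which carries Treg markers, held 3.68%, 1.72% and 1.14% of shared tdTomato-GFP- cells at replicate numbers 1 to 3. It held 15.9%, 15.3% and 11.7% of other tdTomato-GFP- cells. The part of the choice in the Foxp3 difference was not tested. Within the tdTomato+GFP+ gate the log2 difference of shared minus other was -0.12 (adjusted p = 1.0, edgeR).

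The second gene of that interaction was Zeb2, a transcriptional repressor of effector lymphocytes (chromosome 2, 44983632 to 45117395). Zeb2 had 205.0, 208.2 and 141.0 CPM in tdTomato+GFP+, against 133.2, 157.0 and 138.4 CPM in tdTomato-GFP- cells of the shared clonotypes. In the other clonotypes it had 217.9, 177.9 and 171.9 CPM in tdTomato+GFP+, against 44.21, 46.33 and 47.67 CPM in tdTomato-GFP- sums. The shared tdTomato-GFP- cells thus lay well above the other tdTomato-GFP- cells, with no overlap. The gate log2 fold change was 0.41 in shared and 2.04 in other clonotypes, a difference of -1.63 (SE 0.189, edgeR adjusted p = 0.00088). The third was the predicted gene Gm36723 (-1.92, edgeR adjusted p = 0.00306), whose function is not annotated in the files. In edgeR 0 genes passed with equal cells per cluster in the compared sums (232 at an unadjusted p below 0.05), where Foxp3 stood at 2.39 and Zeb2 at -0.75. The count was 0 too with other clonotypes limited to those of at least 2 cells (598 unadjusted), and 66 genes passed in DESeq2 over all cells.

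**Figure D3:**
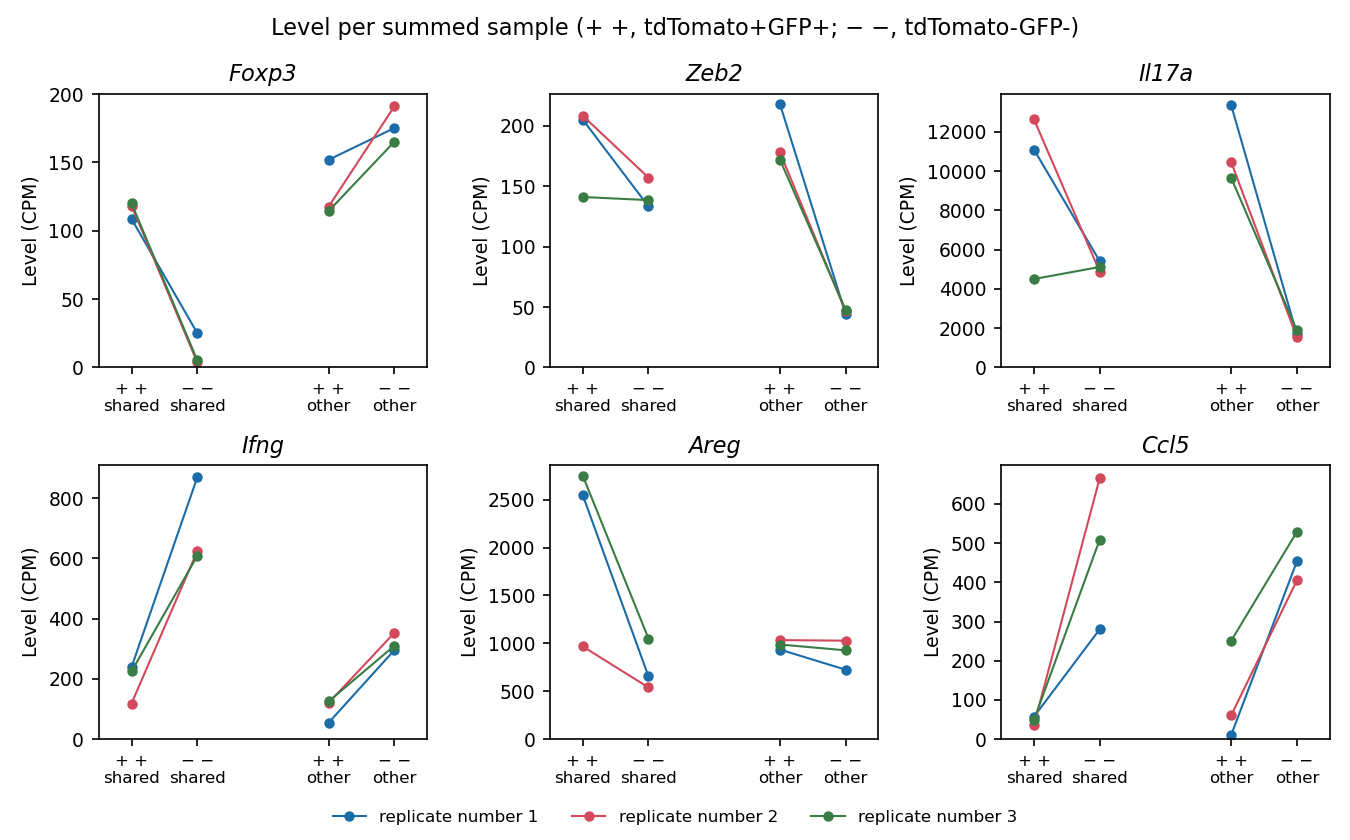
Level in CPM of 6 genes in the 12 summed samples, with tdTomato+GFP+ (+ +) left of tdTomato-GFP- (− −) for shared clonotypes and then for other clonotypes; lines join samples of the same replicate number. Foxp3 separates the gates in shared clonotypes, at 108.7 to 120.1 and 3.828 to 25.23 CPM, and Zeb2 in the other clonotypes.

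The authors' graph-based clusters describe what state each cell was in. Clusters 1, 2, 3, 12 and 13 carry transcripts of T helper 17 (Th17) cells, the producers of the cytokine IL-17; cluster 0 carries type 2 helper markers, cluster 5 Treg markers and cluster 6 Ifng and Tbx21, genes of T helper 1 (Th1) cells. Th17-like clusters held 67.4%, 72.0% and 28.8% of tdTomato+GFP+ member cells, against 35.0%, 34.5% and 40.9% of tdTomato-GFP- member cells. The mean paired difference of 19.3 points did not exceed its own spread (SD 27.3; 32.4, 37.5 and -12.1 points by replicate; exact paired permutation test, two-sided, p = 0.5). With each clonotype weighted equally it was 5.19 points, and with at least 2 cells in each gate 1.77 points. Other clonotypes differed more, with 76.7%, 64.3% and 62.4% of tdTomato+GFP+ and 10.6%, 9.78% and 12.4% of tdTomato-GFP- cells in these clusters.

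**Figure D4:**
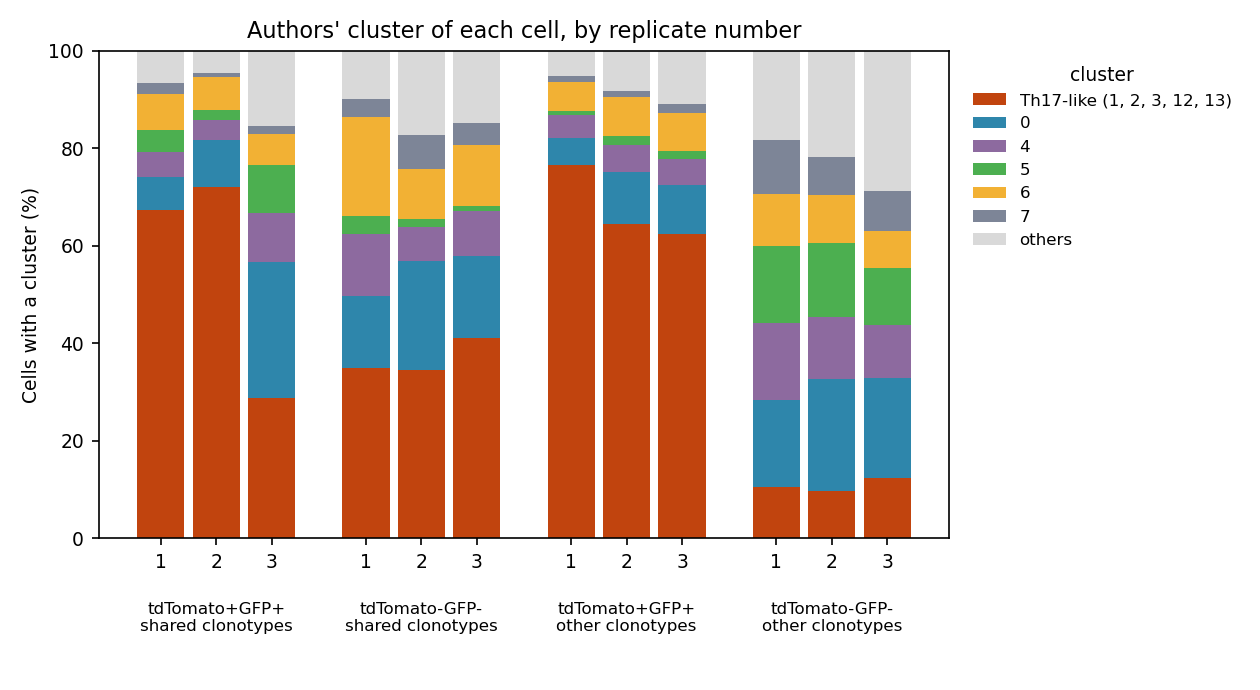
Percent of cells in each of the authors' clusters, a bar per replicate number, for shared clonotypes (left 6 bars) and other clonotypes (right 6 bars), with tdTomato+GFP+ left of tdTomato-GFP- in each. The Th17-like clusters take 34.5% to 40.9% of shared tdTomato-GFP- cells and 9.78% to 12.4% of other tdTomato-GFP- cells.

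Clonotypes spread over several clusters within a gate. Of 74 members with clustered cells in both gates, 18 had a Th17-like cell in both, 13 in tdTomato+GFP+ alone, 11 in tdTomato-GFP- alone and 32 in neither. The Th17-like share was higher in tdTomato+GFP+ cells for 23 members, lower for 16 and equal for 35. The chance that a tdTomato+GFP+ and a tdTomato-GFP- cell of the same clonotype sat in the same cluster was 21.3%, 25.7% and 22.4% at replicate numbers 1 to 3. For cells of different members it was 12.3%, 13.9% and 10.7%, given as a description. A cell of cluster 5 was present among the tdTomato+GFP+ cells of 14 members and the tdTomato-GFP- cells of 7, in both for 2.

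R2-1 and R2-2, which share a beta chain and both alpha chains, had at least 9 cells in each gate. R2-1 had 5 of its 13 tdTomato+GFP+ cells in cluster 2, 4 in cluster 3 and 1 each in clusters 1, 7, 12 and 13; its 10 tdTomato-GFP- cells lay in 9 clusters, with 2 in cluster 8. R2-2 had 4 of 10 tdTomato+GFP+ cells in cluster 1 and 4 in cluster 2, against 5 of 9 tdTomato-GFP- cells in cluster 2. Il17a, the gene of IL-17A, stood at 11602 CPM in tdTomato+GFP+, against 8456 CPM in tdTomato-GFP- cells of R2-1, and at 12902 and 9061 CPM in those of R2-2. These clonotypes were Il17a-high on both sides of the gate. In Th17-like clusters R2-1 had 92.3% of its tdTomato+GFP+ cells and 40% of its tdTomato-GFP- cells, and R2-2 had 90.0% and 88.9%, in the same order.

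The other named members varied, and most values rest on few cells. R2-3 had 60, 37 and 36 of 196 tdTomato+GFP+ cells in clusters 1, 2 and 3, and 3 of its 5 tdTomato-GFP- cells in the Th17-like clusters 1, 3 and 12. R1-1 had 2 of 6 tdTomato+GFP+ cells and 4 of 4 tdTomato-GFP- cells in cluster 0. R1-3 had 3 of 4 tdTomato+GFP+ cells in cluster 5, against 0 of 2 tdTomato-GFP- cells. The growth factor gene Areg stood at 16894 CPM in its tdTomato+GFP+ cells and 1623 CPM in its tdTomato-GFP- cells. R3-3 had 3 of 6 tdTomato+GFP+ cells in cluster 0 and 2 in cluster 5, and its tdTomato-GFP- cells had 1 in cluster 0 and 2 in cluster 3. R3-1 had 2 of 4 tdTomato+GFP+ cells in cluster 4, against 10 tdTomato-GFP- cells over 7 clusters, with Il17a at 1353 CPM in tdTomato+GFP+ and 7700 CPM in tdTomato-GFP- cells. R1-2 and R3-2 had at most 2 cells of a gate in any cluster.

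Over the summed member cells, 20 of 6543 genes passed an adjusted p of 0.05 in edgeR (0.306%), 9 higher (0.138%) and 11 lower (0.168%) in tdTomato+GFP+ cells, and 504 had an unadjusted p below 0.05. Trbv13-3, a receptor segment that the choice of members touches, was among the lower ones. The count moved with the samples that entered. Without replicate number 1 it was 0 (235 at an unadjusted p below 0.05; the test on all 3 gave 12 calls in DESeq2), without number 2 it was 150 and without number 3 it was 77. With equal cells per clonotype 7 genes passed, and of the 14 original genes still tested only Foxp3 was among them. Without the replicate block 20 passed, 12 of them the same, and Igfbp7, Cxcl2, Itgav, Areg, Ccl4, Ifng and Lilrb4a did not.

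Among the genes that rose, Areg encodes amphiregulin, a growth factor that tissue Treg and type 2 helper cells make. Areg had 2559, 957.9 and 2762 CPM in tdTomato+GFP+, against 655.8, 551.8 and 1058 CPM in tdTomato-GFP- sums. It was higher in 3 of 3 pairs, although the groups overlap (log2 1.40, SE 0.199, edgeR adjusted p = 0.012). Areg did not pass with equal cells per clonotype (1.23), with equal cells per cluster (1.165) or in Th17-like clusters only (0.919). Of 18 alternative fits, 9 called it. A repeat of the fit without each clonotype of over 20 cells in a gate, added after the data were seen, still called Areg (1.66, edgeR adjusted p = 0.0357). Ccr4, a chemokine receptor of type 2 helper and skin-homing cells, had 95.18, 91.09 and 84.29 CPM in tdTomato+GFP+, against 32.3, 23.48 and 36.85 CPM in tdTomato-GFP- sums (log2 1.53, edgeR adjusted p = 0.0193). These groups did not overlap. Fgl2, a secreted suppressive protein of Treg cells, had 291.8, 333.7 and 327.6 CPM in tdTomato+GFP+, against 122.2, 191.8 and 165.8 CPM in tdTomato-GFP- sums (log2 1.02, edgeR adjusted p = 0.018), and Itgav, the alpha V integrin chain, stood at log2 1.44. With equal cells per clonotype Ccr4, Fgl2 and Itgav stood at 0.95, 0.59 and 0.66 and did not pass.

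Igfbp7, an insulin-like growth factor binding protein, had the largest rise. It had 369.8, 253.1 and 15.33 CPM in tdTomato+GFP+ sums, against 18.26, 7.828 and 5.264 CPM in tdTomato-GFP- sums (log2 4.25, SE 0.331, edgeR adjusted p = 0.00034). R1-7 gave 90.3% of the UMIs of Igfbp7 in the first of these sums and R2-3 82.6% in the second. The high values are thus those of 2 clones. Nckap5 (log2 2.68) and the neutrophil-attracting chemokine Cxcl2 (2.13) also passed in edgeR; R3-10 held 62.8% of the Cxcl2 UMIs of the third tdTomato+GFP+ sum. For cells with exactly 1 alpha and 1 beta chain the Cxcl2 value was -0.03.

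Of the 11 genes that fell, 5 belong to the Th1 list. Ifng, the gene of interferon gamma, had 240.3, 117.2 and 226.1 CPM in tdTomato+GFP+, against 870.6, 638.0 and 613.3 CPM in tdTomato-GFP- sums (log2 -1.91, SE 0.188, edgeR adjusted p = 0.0011). Tbx21, the master transcription factor of Th1 cells, had 24.97, 20.16 and 24.9 CPM in tdTomato+GFP+ sums, against 110.9, 74.36 and 84.23 CPM in tdTomato-GFP- sums (log2 -1.94, edgeR adjusted p = 0.00425). Cxcr3, a chemokine receptor of Th1 cells, had 21.85, 20.16 and 34.48 CPM in tdTomato+GFP+, against 137.6, 164.4 and 73.7 CPM in tdTomato-GFP- sums (log2 -2.37, edgeR adjusted p = 0.0093). In these 3 genes every tdTomato+GFP+ sum lay below every tdTomato-GFP- sum.

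The chemokine genes Ccl5 and Ccl4, made by Th1 and cytotoxic cells, fell further. Ccl5 had 57.73, 36.58 and 49.81 CPM in tdTomato+GFP+, against 280.8, 681.0 and 513.3 CPM in tdTomato-GFP- sums (log2 -3.33, edgeR adjusted p = 0.012). Ccl4 rests on 2, 5 and 4 UMIs in tdTomato+GFP+, against 13, 22 and 82 UMIs in tdTomato-GFP- sums (log2 -4.35, edgeR adjusted p = 0.0004). R3-4 alone held 98.5% of the Ccl5 and 97.6% of the Ccl4 UMIs of the third tdTomato-GFP- sum. Ctsw, a cathepsin of cytotoxic lymphocytes, had 45.25, 18.67 and 36.4 CPM in tdTomato+GFP+, against 185.4, 113.5 and 142.1 CPM in tdTomato-GFP- sums (log2 -2.17, edgeR adjusted p = 0.0011). Fasl, the ligand that triggers Fas-mediated death, stood at -1.33, Ms4a4b, a membrane protein of T cells, at -1.17, the inhibitory receptor Lilrb4a at -1.02 and Gramd3 at -1.97.

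A few clones carried much of these falls. R1-8 gave 67.7% of the Ifng UMIs of the first tdTomato-GFP- sum and R3-8 49.4% in the third. With equal cells per clonotype the Ifng difference was 0.01 and those of Cxcr3, Ctsw and Ccl5 were -0.66, -0.93 and -1.42, none past the threshold in edgeR. Ifng UMIs were found in both gates for 22 clonotypes, in tdTomato+GFP+ cells alone for 7, in tdTomato-GFP- cells alone for 7 and in neither for 39. By this count the clonotypes divided evenly for Ifng, but finding a UMI depends on the number of cells, which differed between the gates. Without the largest clonotype of each replicate number, Ifng passed at -1.10 (edgeR adjusted p = 0.0036), as did Tbx21 at -1.88 and Ctsw at -1.89. Without all clonotypes of over 20 cells, Ctsw still passed (-1.87, edgeR adjusted p = 0.0062) and Ifng did not (-0.73).

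**Figure D5:**
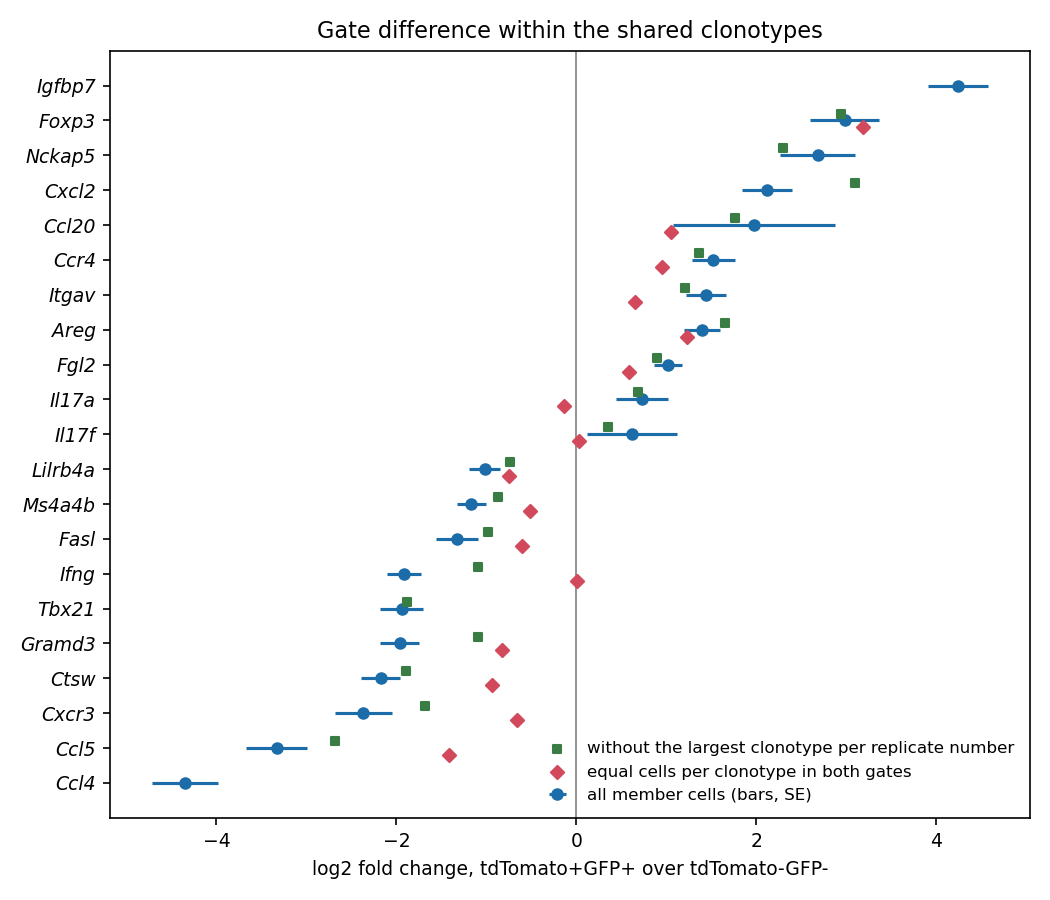
Log2 fold change of tdTomato+GFP+ over tdTomato-GFP- member cells for the 18 called genes that the naming rule takes and for Il17a, Il17f and Ccl20. Circles with SE bars use all member cells, squares leave out the largest clonotype of each replicate number and diamonds use equal cells per clonotype; a missing mark means that the gene was filtered out as too low. Foxp3 stays near 3 throughout, while Ifng is at -1.91 with all cells and at 0.01 with equal cells per clonotype.

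The 6 further genes called with equal cells per clonotype had not passed before. Higher were Calca (1.95), the gene of a neuropeptide, the type 2 cytokine gene Il13 (1.38), the antigen presentation gene Cd74 (1.24) and Gm42418 (0.51), and lower were Ccrl2 (-1.79) and the heat shock gene Dnajb1 (-0.98). In the fit of all member cells their edgeR adjusted p was 0.394 to 0.967, and these 6 were seen only after that repeat. Cd74 is also a B cell gene, and the summed B and plasma cell level was higher in the tdTomato+GFP+ sums (421 to 634, against 217 to 312 CPM); its part was not tested.

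Cytokine genes of Th17 cells did not pass. Il17a had 11150, 12510 and 4531 CPM in tdTomato+GFP+, against 5423, 4986 and 5162 CPM in tdTomato-GFP- sums, which overlap (log2 0.73, SE 0.287, edgeR adjusted p = 0.61). R1-7 and R2-3 gave 80.2% and 72.5% of the Il17a UMIs of the first and second tdTomato+GFP+ sums. With equal cells per clonotype the difference was -0.13, and without clonotypes of over 20 cells in a gate Il17a passed at 0.68 (edgeR adjusted p = 0.00064). In Th17-like clusters only, Il17a passed as well, at 0.288. Il17f stood at 0.62. Ccl20, which encodes the ligand of the receptor Ccr6, had 2678, 2660 and 1054 CPM in tdTomato+GFP+, against 200.8, 786.7 and 726.5 CPM in tdTomato-GFP- sums, without overlap, yet did not pass (log2 1.98, SE 0.9, edgeR adjusted p = 0.75; past the threshold at 1.76 without the largest clonotypes). Maf, a transcription factor that Th17 cells express, was at -0.11.

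Other Treg genes named by rule did not pass. Il10, the gene of a suppressive cytokine, stood at log2 1.17 (edgeR adjusted p = 0.06). Ctla4, a checkpoint receptor, was at 0.42, Il2ra, the high-affinity IL-2 receptor chain, at 0.47 and Ikzf2, the transcription factor Helios, at -0.26, none past the threshold. Of the remaining genes named by rule, Il22 (-1.12), Il23r (-0.72), Gata3 (0.40), Tcf7 (-0.75), Cd40lg (-0.84), Csf2 (-1.43), Cd86 (1.18), Satb1 (-0.89) and Prdm1 (0.49) did not pass either. In Th17-like clusters only, Il22 (-1.946) and Cd40lg (-1.345) did pass in edgeR, and Cd40lg also passed with equal cells per cluster (-0.832). Vdr, Lrrc32, Itgae, Itgb8, Il2, Tmeff2 and Syp were too low to be tested.

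The median log2 difference over all 6543 genes was 0.005, and 14.4% of them were higher and 14.5% lower in all 3 pairs. Of 14 Th1 genes tested, 0 rose and 5 fell (median -0.68), and 9 were lower in all 3 pairs. Of 5 cytotoxic genes, 2 fell (Ctsw and Fasl, median -1.33). Of 17 Treg core genes, Foxp3 alone rose (median 0.47, 7 higher in all 3 pairs), and of 16 effector and tissue Treg genes Areg and Fgl2 rose (median 0.44). Areg and Ccr4 were the 2 of 10 Th2 genes that rose (median 0.73). Of 18 Th17 genes 0 rose and 0 fell (median -0.10), and of 9 naive and central memory genes 0 passed (median -0.69). The same count was 0 of 11 follicular helper genes, 0 of 23 cell cycle genes and 0 of 9 interferon response genes (medians 0.01, 0.10 and -0.33).

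Within the tdTomato-GFP- gate, shared clonotypes stood apart from the rest, and here lane and sort are the same. Of 9945 genes, 221 passed in edgeR (2.22%), 89 higher (0.895%) and 132 lower (1.33%) in shared clonotypes, with 1088 at an unadjusted p below 0.05. Il17a had 5421, 4926 and 5140 CPM in shared and 1677, 1522 and 1889 CPM in other clonotypes (log2 1.61, SE 0.074, edgeR adjusted p = 1.9e-13). Ccl20 had 200.7, 777.2 and 723.4 CPM in shared, against 61.78, 166.7 and 112.0 CPM in other clonotypes (log2 2.22, edgeR adjusted p = 7.6e-06), and Zeb2 was higher by 1.63. The groups did not overlap for Il17a, Ccl20 or Zeb2. A few clones weighed heavily in the shared sums. R1-8 gave 69.3% of the Il17a UMIs of the first, R2-1 30.1% of the second and R3-8 50.3% of the third. With 1 cell per clonotype, Il17a (1.494), Ccl20 (2.565), Il17f (1.748) and Ifng (0.54) kept their direction but did not pass in edgeR, while Zeb2 did (1.986). Cpe, a peptide-processing enzyme gene, rose by 1.5 and Nmrk1, a kinase gene of NAD synthesis, by 1.46, and Il17f (1.30), Ifng (1.15), Tbx21 (0.66), Maf (0.46), Cd40lg (0.46) and Ctla4 (0.42) were higher as well.

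Genes of naive and Treg cells were lower in these shared cells. For the Treg genes, the choice of members through the Foxp3 reporter bears on this, and its part was not tested. Members also have by rule a cell in each gate, whereas 77.6% of other tdTomato-GFP- clonotypes were single cells. S1pr1, the receptor that lets T cells leave tissue, had 11.23, 15.47 and 15.73 CPM in shared and 75.74, 76.25 and 97.73 CPM in other clonotypes (log2 -2.62, edgeR adjusted p = 2.9e-07). Cd7 stood at -3.02, Itgae, the CD103 chain that binds epithelial E-cadherin, at -3.39 (7 UMIs in shared cells), and Ikzf2, Tcf7, Il22, Il2, Il10 and Itgb8 at -1.43, -0.94, -1.34, -1.54, -0.87 and -2.21. Igfbp4 had 3 UMIs in shared against 2323 in other clonotypes, a ratio of 0.03 per UMI total (95% counting interval 0.00618 to 0.0878). Lrrc32, which displays latent TGF-beta on Treg cells, had 1 UMI in shared against 539 in other clonotypes (ratio 0.0431, interval 0.00109 to 0.241). Both also passed in edgeR, and Il2ra, Il23r, Gata3, Csf2, Syp, Cd86, Satb1 and Prdm1 did not pass, with log2 values from -0.71 to 1.09. Against other clonotypes of at least 2 cells, S1pr1 (-1.36), Tcf7 (-0.47), Itgae, Il2, Itgb8 and Lrrc32 did not pass in edgeR. Cd7 (-3.21), Ikzf2, Il22 and Il10 did, and Igfbp4 was not tested there.

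By list, 9 of 18 Th17 genes rose and 2 fell (Il22 and Ccr6; median log2 0.80, against -0.01 over all genes), and 4 of 15 Th1 genes rose (Ifng, Tbx21, Cxcr6 and Nkg7; median 0.50). Of 14 naive and central memory genes 9 fell (median -1.41), and of 24 Treg core genes 10 fell, Foxp3 among them, and 2 rose (Ctla4 and Capg; median -0.60). Cluster make-up moved with these counts. With equal cells per cluster in both sums 6 genes passed, with Il17a at 0.02 and Foxp3 still at -2.61 (edgeR adjusted p = 0.0025). Ccl20 (0.74) and Zeb2 (0.87) did not pass there. Limited to other clonotypes of at least 2 cells, 25 passed, Il17a at 0.95 and Ccl20 at 1.76 among them, and without the replicate block 126 passed, Ccl20, Il17f, Igfbp4, Itgae, Il10, Il22 and Il2 not among them. Of 7 B and plasma cell genes tested, Igha and Igkc were lower. Of 5 gamma delta T cell genes tested, 3 were higher (Tcrg-C1, Trgv2 and Maf; median 1.10), and 5 of 5 were higher in all 3 pairs, as were 13.9% of all genes. The 10 gamma delta T cell genes of the list in the table summed to 762 to 825 CPM in shared and 494 to 517 CPM in other clonotypes. The delta constant gene Trdc was at 0 in the shared sums of replicate numbers 1 and 3, and Sox13 in all 3 shared sums. The part of these markers in the other calls was not tested.

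Within the tdTomato+GFP+ gate few genes set shared clonotypes apart. Of 10004 genes, 15 passed in edgeR (0.15%; 0.01% higher, 0.14% lower; 437 at an unadjusted p below 0.05), and 12 of them were alpha or beta receptor segment genes, which the choice of members touches. Of the other 3, Tcrg-V3 and Tcrg-V4 are gamma chain segments and were lower. The third was Birc5, survivin, a gene of dividing cells, at 84.13, 44.34 and 45.93 CPM in shared and 34.92, 25.9 and 26.2 CPM in other clonotypes (log2 0.96, edgeR adjusted p = 0.0402). Its groups did not overlap. It was 1 of 25 cell cycle genes called, and 10 of these were higher in all 3 pairs (median 0.37, against 0.005 over all genes), as were 11.8% of all genes. With 1 cell per clonotype Birc5 stood at -2.45, and without the replicate block 0 genes passed in edgeR (465 at an unadjusted p below 0.05). With the block DESeq2 called 5. Il17a (-0.36), Il17f (-0.65) and Ccl20 (-0.18) did not pass.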

How the data were processed

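The deposited counts are whole UMI counts per cell and gene; gate, hashed replicate and cluster come from the deposited cell table and junctions from the deposited receptor table. The hashtag fraction in the authors' cell table, at least 0.8 in every cell with a replicate number, was used as a check. The tools, per the submitters' processing notes, include Scanpy 1.7.2 and Cell Ranger, with GRCm38 and mm10 as the named builds; versions of Cell Ranger, cell filters and clustering settings are not given in the sources used here. Hashtag features (43.8% of UMIs) and the 4721 cells without a replicate number were left out; no doublet caller was run, and whether doublets were removed earlier is not given. Germline matches and coordinates use GENCODE M21 (GRCm38), with at least 6 matched bases per segment.

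Counts were summed per gate and replicate number and tested with edgeR 4.0.16 in R 4.3.3 (TMM, filterByExpr with a minimum count of 10, robust glmQLFit, glmQLFTest, two-sided, Benjamini-Hochberg over all genes tested), with replicate number as a block. The pairing follows the rule by which members were chosen, the same replicate number in both gates. It was checked over 11933 genes in all cells with a replicate number. Deviations from the gate means of same-numbered samples correlated at 0.264, 0.148 and 0.275. Those of differently numbered samples correlated at -0.287 to 0.063. CPM are UMIs per 1000000 of the TMM-adjusted total, with scaling of its own in each fit, except those of single clonotypes and cell type markers, which use the plain total. Named genes are the 10 largest rises and 10 largest falls (5 and 5 outside the gate contrast) with an adjusted p below 0.05, the same sign in all 3 pairs and a mean of at least 20 CPM, without receptor, immunoglobulin and predicted genes, plus a fixed set, 1 gene of which is not reported here. Gm36723 and the genes called only with equal cells per clonotype were named after their values were seen. The members and lists were chosen with earlier results of these data known. The fits were tested on simulated data. Alternatives were RLE scaling, DESeq2 1.42.0, glmTreat, no filter, no block, left-out replicates and other weightings of clonotypes and clusters.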

Additional observations from a re-analysis of the deposited data

Results flagged for a closer look

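Foxp3 differed between the gates in opposite directions in shared and other clonotypes, by 2.97 and -0.48 on the log2 scale, and the difference of 3.45 passed in edgeR. The sort and the choice of members through it both bear on this difference. Zeb2 had a smaller gate difference in shared than in other clonotypes (0.41 and 2.04), a difference of -1.63. The predicted gene Gm36723 had gate log2 values of -0.56 in shared and 1.36 in other clonotypes, a difference of -1.92. Its level was 55.92, 64.87 and 34.31 CPM in tdTomato+GFP+, against 91.12, 61.25 and 83.58 CPM in tdTomato-GFP- cells of shared clonotypes. In other clonotypes it was 73.92, 63.23 and 68.23 CPM in tdTomato+GFP+, against 24.74, 25.25 and 30.68 CPM in tdTomato-GFP- cells.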

How the results depend on the processing

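The number of genes called between the gates in shared clonotypes (20) was 2 with 1 cell per clonotype and gate or with at least 2 cells in each gate, 12 with DESeq2, 7 with equal cells per clonotype, 11 with glmTreat, 174 with no filter, 6 with only cells of 1 alpha and 1 beta chain, 35 in Th17-like clusters only, 10 without the largest clonotypes, 7 without clonotypes of over 20 cells (added after seeing the data) and 0 to 150 without 1 replicate. Without the replicate block it was 20, of which 12 were the same genes. The interaction count (3) was 22 with 1 cell per clonotype, 66 with DESeq2, 0 with equal cells per cluster, 23 with no filter, 0 with other clonotypes of at least 2 cells, 3 without the block and 4 to 67 without 1 replicate. Within tdTomato+GFP+, the count (15) was 4 with 1 cell per clonotype, 5 with DESeq2, 62 with no filter, 0 without the block and 22 to 149 without 1 replicate. Within tdTomato-GFP-, the count (221) was 96 with 1 cell per clonotype, 104 with DESeq2, 6 with equal cells per cluster, 373 with no filter, 126 without the block, 25 with other clonotypes of at least 2 cells and 159 to 263 without 1 replicate. The causes were not tested.

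Of the log2 values of named genes between the gates under an alternative, 416 kept direction and side of the threshold, 106 no longer passed, 25 newly passed and 10 reversed. Reversed were Cxcl2 (-0.03, 1 alpha and 1 beta chain); Ifng (0.01), Il17a (-0.13), Ikzf2 (0.64) and Il22 (0.34) with equal cells per clonotype; Ikzf2 without replicate 1 (0.01; down to -0.68 without another), without the largest clonotypes (0.26) and without those over 20 cells (0.25); Il2ra (-0.05, at least 2 cells); and Gata3 without replicate 3 (-0.13; up to 0.96 without another replicate or the largest clonotypes, its own direction). Within tdTomato+GFP+, Birc5 (-2.45, 1 cell per clonotype), Foxp3 without replicate 1 (0.03; down to -0.21 without another), and Il17a (0.00; down to -0.67) and Ccl20 (0.30; down to -0.51) without replicate 3, reversed. A few clones dominate the sums, and the 58 tdTomato-GFP- member cells at replicate number 2 limit what can be seen there.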
